A study of Mus musculus with 7 samples.

Results

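Aminoacyl-tRNA synthetases join each amino acid to its own tRNA, the step that loads the ribosome's adaptors before translation. A cytosolic set serves the ribosomes of the cytoplasm, and a mostly separate set, encoded in the nucleus and imported, serves the ribosomes of mitochondria. Gars and Kars, grouped as cytosolic below, also serve mitochondria. The 36 genes described here were taken by symbol from a fixed list of cytosolic and mitochondrial synthetases, without the mitochondrial leucyl enzyme Lars2. All 36 were found among the 34592 genes of the deposited count table, 21 of them cytosolic and 15 mitochondrial, and all 36 were among the 17389 genes that passed the filter on low counts and were tested.

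The tumors were mouse Group 3 medulloblastomas (G3 MBs), 4 that overexpress human WDR11 (WDR11OE) and 3 controls. All 7 came from 1 tumorsphere line (# 19568), which was grown from a tumor of Trp53-/-; Cdkn2c-/- cerebellar granule neuron progenitors that carried a Myc retrovirus. The paper's methods name this retrovirus Myc-IRES-GFP, and a figure legend names it myc-IRES-RFP. For WDR11OE the cells were infected with the lentivirus pCDH-EF1-WDR11-T2A-copGFP, in which the EF1 promoter drives WDR11. For the controls the study describes an empty vector, which it does not name, while the labels list no treatment. Without sorting, the cells exposed to virus were placed in the cortex of CD1-nu/nu hosts, which still have their own brain cells, vessels and myeloid cells. By the paper, lentiviral infection was incomplete, so cells without the vector were implanted too. RNA was taken from tumor chunks once the mice were moribund, while the paper's abstract speaks of the transcriptome of tumorspheres. The titles of WDR11OE replicates 1 and 2 share the number 4670, and those of replicates 3 and 4 carry 4671 and 4672. All replicate numbers are names only.

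Synthetases are divided by the fold of their catalytic domain into class I and class II. In the cytoplasm, 8 of the listed genes encode enzymes of the multi-tRNA synthetase complex, held together by the scaffold proteins Aimp1, Aimp2 and Eef1e1. Genes of several cytosolic synthetases are known targets of the transcription factor ATF4, which is induced when amino acids run short or the endoplasmic reticulum is stressed, and many are also bound by MYC in growing cells.

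Counts per tumor totalled between 32116095 and 87141305, and values are given as CPM, counts scaled to the library size by TMM. Tests across genes are edgeR's quasi-likelihood test, and its p is given after Benjamini-Hochberg adjustment over all genes tested; log2 fold changes are those of WDR11OE over control, given ± the standard error. The lowest count of a synthetase gene in any tumor was 314 and the highest was 51145. The mouse Wdr11 gene, whose row cannot separate reads of the human transgene, lay between 58.3 and 59.3 CPM in the controls and between 61.0 and 68.9 CPM in WDR11OE (edgeR adjusted p = 0.0910). Myc fell from 914 ± 169 CPM (SD, n = 3) to 347 ± 75.5 CPM (n = 4; edgeR adjusted p = 0.00227), and its row counts endogenous and retroviral Myc alike. The summed markers of muscle lay between 2.88 and 5.03 CPM in the controls and between 67.4 and 148 CPM in WDR11OE. Of these, 8 of 8 were higher, and 1 was at 0 in every control. The list holds Mybpc3, a gene of heart muscle, which made up 24.4 to 46.1 CPM of the sums in WDR11OE. Summed neuron markers, 10 in number, ranged from 74.5 to 466 CPM in the controls and from 13.3 to 733 CPM in WDR11OE. None of the 10 was at 0 in a control, and Neurod6 was at 0 in WDR11OE replicates 1 and 3. Summed endothelial markers lay between 112 and 142 CPM in the controls and between 86.4 and 95.8 CPM in WDR11OE, with 2 of 6 lower (Cdh5 and Flt1) and none at 0, and the sums of astrocyte, oligodendrocyte and microglia markers overlapped. Summed granule lineage markers, 6 in number, lay between 31.6 and 37.9 CPM in the controls and between 24.2 and 57.8 CPM in WDR11OE. Among them, Atoh1 was at 0 in all 7 tumors and Barhl1 was at 0 in every control. The part of other cells in the values below was not tested, and fewer cells of a type and less RNA per cell cannot be told apart in tumor chunks. The libraries of each condition were numbered in a series of their own, and what separates those series cannot be told apart from the effect of condition.

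Of the 36 genes, 4 fell in WDR11OE and 8 rose at an adjusted p under 0.05, and 24 did neither. The genes that fell were Iars, Sars2, Vars and Vars2, and those that rose were Rars, Dars, Rars2, Lars, Tars, Farsb, Fars2 and Eprs. The largest fall was that of Iars, by 0.80 on the log2 scale, and the largest rise was that of Rars, by 0.73. Thus 11.1% of the family fell where 15.8% of all genes tested did, and 22.2% rose where 18.1% of all genes tested did, so the counts alone do not set the family apart from other genes. The median log2 fold change was 0.09 over the 36 genes and 0.08 over all 17389.

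None of the 36 genes reached a 2-fold difference in either direction by edgeR, limma-voom or DESeq2, also without adjustment of p, whereas 3.45% of all genes tested fell and 2.36% rose by at least 2-fold with an average log2 CPM above 0. The tumors of the groups did not overlap for 15 of the 36 genes, 5 lower (13.9%) and 10 higher (27.8%), against 19.1% and 23.5% of all genes tested. Beside the 12 genes past the threshold, these were Mars and Nars2, both higher, and Tars2, lower. With the trend in GC content removed from each tumor, 1 synthetase gene fell (2.78%, against 14.3% of all genes tested) and 4 rose (11.1%, against 11.2%).

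**Figure D1:**
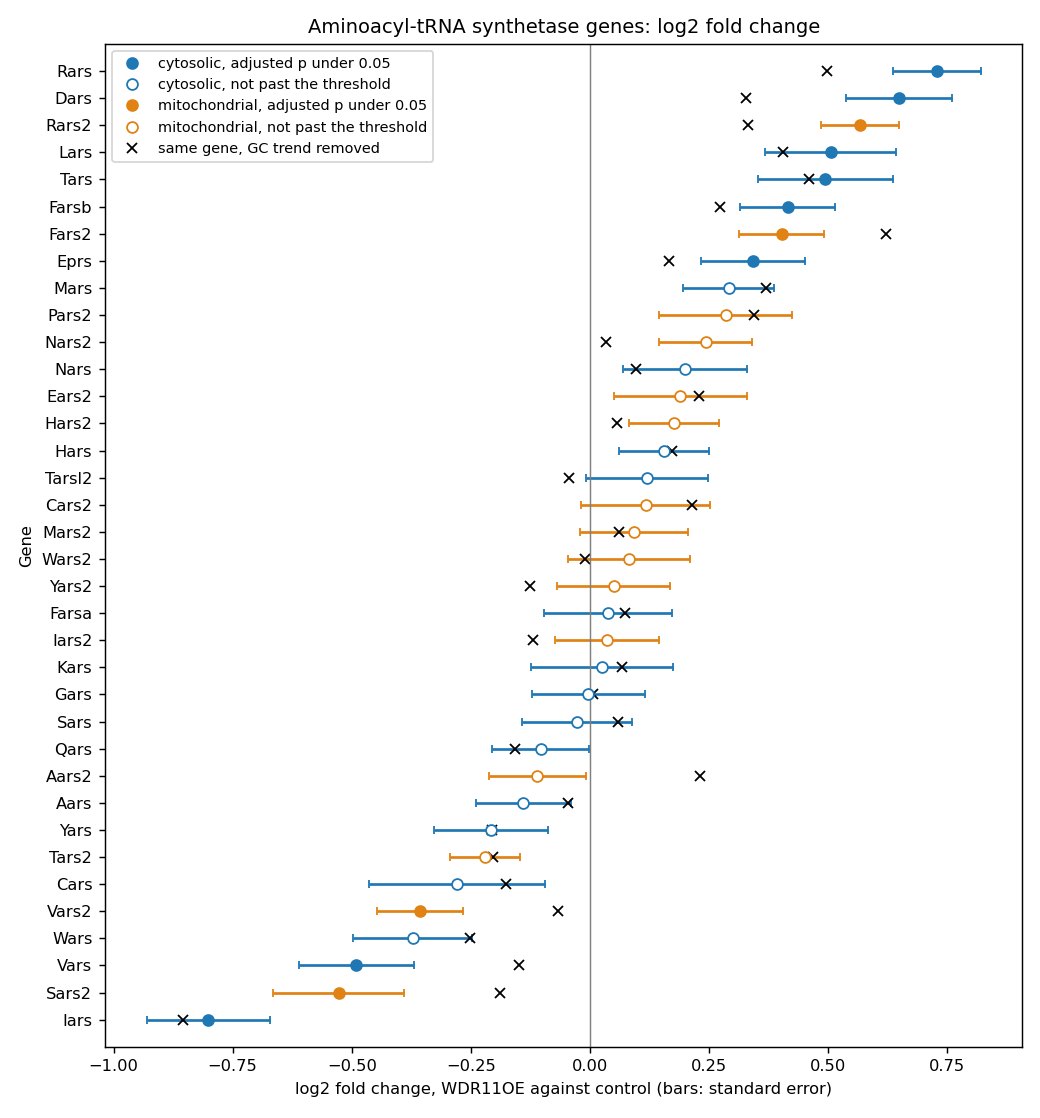
Log2 fold change of WDR11OE against control for the 36 synthetase genes, with bars of 1 standard error from edgeR's quasi-likelihood fit. Filled circles mark the 12 genes past an adjusted p of 0.05, colors separate cytosolic from mitochondrial enzymes, and crosses give the value after removal of the GC trend: Iars stays near -0.85, while Vars, Vars2 and Sars2 move towards 0.

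The sequence upstream of a gene is shown for 4 members, Iars, which fell, Tars and Dars, which rose, and Aars, which did neither. RefSeq promoters (GRCm38.p6, from 250 bases before the first transcribed base to 50 bases from it onwards) were found for 27 of the 36 genes. The 9 without an entry were Cars, Hars, Lars, Nars, Rars, Vars, Wars, Hars2 and Pars2. Capitals mark 2 motifs: the E-box CACGTG, which MYC and related factors bind and which reads the same on both strands, and TGATGNAA, the core of the element bound by ATF4, searched on both strands and printed as its reverse complement where it lies on the minus strand. No marked matches overlap.

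Iars, chr13:49681880-49682179, plus strand: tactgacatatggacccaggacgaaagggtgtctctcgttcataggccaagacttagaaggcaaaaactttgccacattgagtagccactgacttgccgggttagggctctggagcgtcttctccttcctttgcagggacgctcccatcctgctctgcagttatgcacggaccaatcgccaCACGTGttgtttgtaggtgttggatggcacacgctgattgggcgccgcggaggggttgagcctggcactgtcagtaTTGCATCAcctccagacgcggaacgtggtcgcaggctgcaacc

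Tars, chr15:11399609-11399908, minus strand: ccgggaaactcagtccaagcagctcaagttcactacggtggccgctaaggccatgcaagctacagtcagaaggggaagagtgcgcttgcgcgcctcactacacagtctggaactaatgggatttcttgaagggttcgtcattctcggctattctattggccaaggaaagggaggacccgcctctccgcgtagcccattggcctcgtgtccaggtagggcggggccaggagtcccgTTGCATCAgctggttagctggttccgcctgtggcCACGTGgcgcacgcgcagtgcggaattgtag

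Aars, chr8:111033592-111033891, plus strand: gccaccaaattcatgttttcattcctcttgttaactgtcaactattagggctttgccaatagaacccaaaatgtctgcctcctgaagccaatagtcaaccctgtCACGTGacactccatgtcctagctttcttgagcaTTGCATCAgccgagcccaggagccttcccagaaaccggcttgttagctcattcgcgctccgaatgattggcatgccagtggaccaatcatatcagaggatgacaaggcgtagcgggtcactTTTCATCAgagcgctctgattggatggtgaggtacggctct

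Dars, chr1:128417367-128417666, minus strand: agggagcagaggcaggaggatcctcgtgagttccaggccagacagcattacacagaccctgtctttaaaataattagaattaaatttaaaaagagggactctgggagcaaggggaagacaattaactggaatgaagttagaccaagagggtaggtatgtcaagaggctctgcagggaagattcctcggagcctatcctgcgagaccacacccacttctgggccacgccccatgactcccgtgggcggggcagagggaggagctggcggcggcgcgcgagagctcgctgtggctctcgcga

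In Iars the E-box began 69 bases before the first transcribed base and the ATF4 core at transcribed base 8. In Tars the core began 15 bases before the start and the E-box at transcribed base 20, and Aars held an E-box 146 bases before its start and 2 cores. Dars held neither motif in this window, which says only that these letters are not in it. The E-box was found in 5 of the 27 promoters (Aars, Farsb, Iars, Tars and Ears2; 18.5%), against 8.09% of 27025 genes with a promoter, and the ATF4 core in 5 (Aars, Gars, Iars, Tars and Yars), against 4.51%. The 3 genes that hold both motifs did not move together, as Iars fell, Tars rose and Aars had a log2 fold change of -0.14 (edgeR adjusted p = 0.327). A match is a run of letters and not a bound site.

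Among the 8 enzymes of the multi-tRNA synthetase complex, 1 fell (Iars, 12.5%) and 4 rose (Rars, Dars, Lars and Eprs; 50.0%), against 15.8% and 18.1% of all genes tested, and the median log2 fold change was 0.32. Without the GC trend, Iars fell (12.5%, against 14.3% of all genes tested) and the risers were 2, Rars and Mars (25.0%, against 11.2%). Iars charges tRNA with isoleucine and lies at chr13:49777469-49829636 (NCBIM37, plus strand). It was at 189, 143 and 182 CPM in the control tumors and at 82.4, 105, 98.6 and 108 CPM in the WDR11OE tumors. Every WDR11OE tumor was below every control, a 1.74-fold fall (log2 fold change -0.80 ± 0.13 (SE), edgeR adjusted p = 0.00379). With the GC trend removed the log2 fold change was -0.85 with an adjusted p of 0.00444 by the same test, and Iars was past the threshold in all 18 alternative analyses.

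Rars, the arginyl enzyme at chr11:35621883-35648008 on the minus strand, moved the opposite way from Iars. Its level was 83.5, 86.4 and 100.3 CPM in the controls and 156, 160.0, 144 and 137 CPM in WDR11OE. The groups were well apart, and the 1.66-fold rise was past the threshold in all 18 alternatives (0.73 ± 0.09, edgeR adjusted p = 0.00161). After removal of the GC trend it was 0.50 with an adjusted p of 0.0175. Within a tumor, the log2 ratio of Rars to Iars was -1.18, -0.73 and -0.86 in the controls and 0.92, 0.61, 0.55 and 0.34 in WDR11OE. The ratio was below 0 in every control and above 0 in every WDR11OE tumor. This pair was picked for its opposite changes and is given without a test.

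Dars, the aspartyl enzyme (chr1:130260285-130313993, minus strand), was at 105, 100.3 and 113 CPM in the controls and at 186, 181, 154 and 142 CPM in WDR11OE. All WDR11OE tumors were above the controls, with replicates 1 and 2 highest, and the rise was 1.57-fold (0.65 ± 0.11, edgeR adjusted p = 0.00454). Its exons have the lowest GC content of the family, 41.7%, and without the GC trend the log2 fold change was 0.33 with an adjusted p of 0.118. Removal of the trend was the sole alternative of 18 in which Dars was not past the threshold.

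Lars, the leucyl enzyme on chromosome 18, lay at 158, 106 and 154 CPM in the controls and at 197, 199.5, 194 and 203 CPM in WDR11OE. The WDR11OE tumors were close together above all controls, and control replicate 2 was lowest (0.51 ± 0.14, edgeR adjusted p = 0.0272). Leucine is one of the amino acids whose shortage the mTOR pathway senses, and Lars is among the proteins described as its sensors. Eprs encodes a single protein that charges both glutamate and proline, and it was at 492, 404 and 502 CPM in the controls and at 631, 624, 549.8 and 560.2 CPM in WDR11OE. The groups did not overlap, but the rise of 1.27-fold was just past the threshold (0.34 ± 0.11, edgeR adjusted p = 0.0468) and stayed past it in 6 of 18 alternatives. Without the GC trend the adjusted p was 0.0671 for Lars and 0.360 for Eprs.

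The other 3 enzymes of the complex were not past the threshold. Mars, the methionyl enzyme, was at 97.5, 81.7 and 104 CPM in the controls and at 117, 121, 107 and 117 CPM in WDR11OE. These groups did not overlap, the adjusted p was 0.0520 (edgeR's quasi-likelihood test), and it was 0.0324 without the GC trend, where Mars counted among the genes that rose. Kars, the lysyl enzyme, ranged from 185 to 243 CPM in the controls and from 182 to 239.6 CPM in WDR11OE, and Qars, the glutaminyl enzyme, from 114 to 151 and from 117 to 131 CPM. Both overlapped across the groups, with log2 fold changes of 0.03 and -0.10.

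Summed over the 8 genes, the complex took 1445, 1229.9 and 1549.7 CPM in the controls and 1737, 1762, 1551 and 1566 CPM in WDR11OE. The lowest WDR11OE tumor and the highest control were almost level. Of the scaffold genes, Aimp1 was at 44.1, 46.6 and 57.0 CPM in the controls and at 79.9, 78.8, 72.2 and 68.9 CPM in WDR11OE. It rose 1.52-fold (0.61 ± 0.11, edgeR adjusted p = 0.00502), and with the GC trend removed its log2 fold change was 0.55 (edgeR adjusted p = 0.0156). Aimp2, at -0.01 (edgeR adjusted p = 0.980), and Eef1e1, at 0.22 (edgeR adjusted p = 0.136), were not past the threshold.

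**Figure D2:**
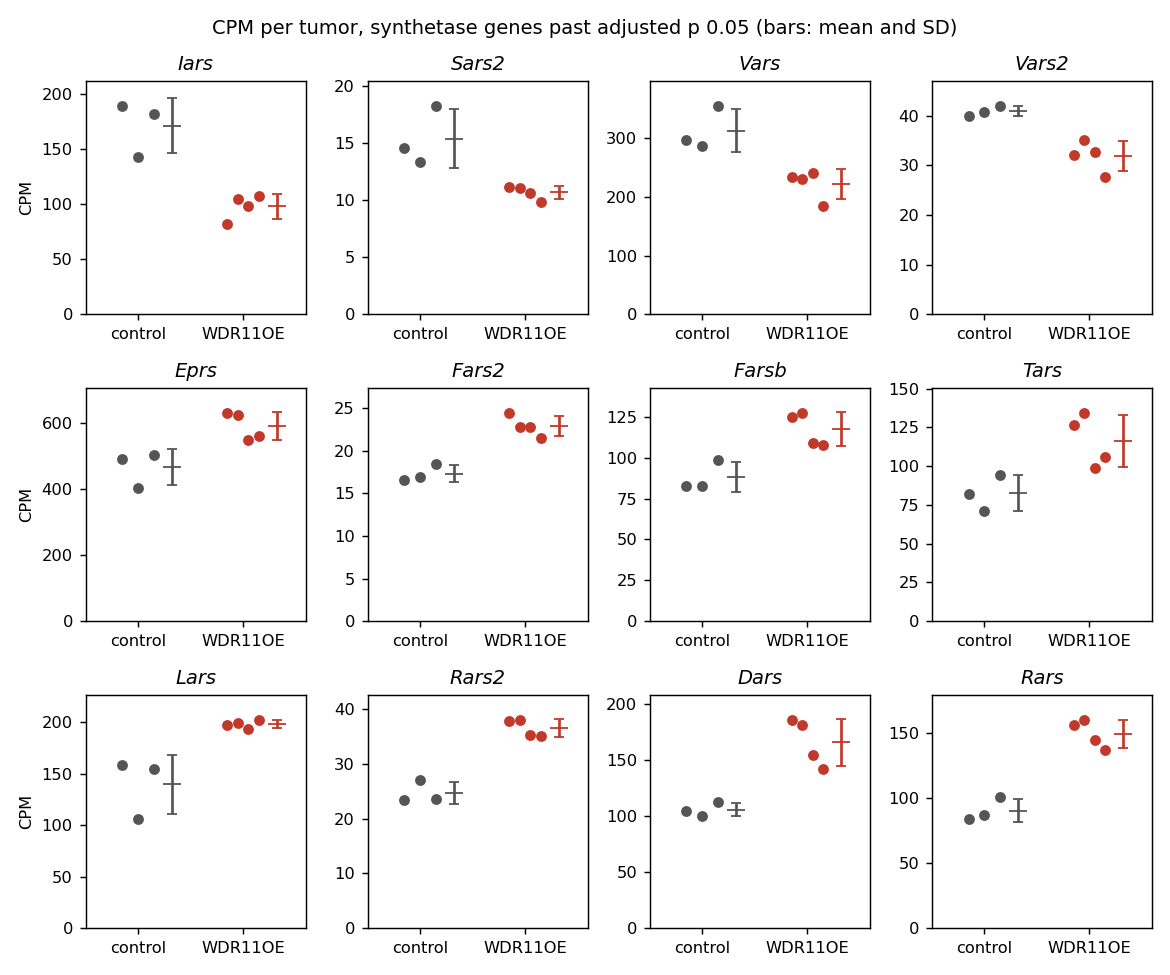
CPM in each tumor (grey: 3 controls; red: 4 WDR11OE) for the 12 synthetase genes past an adjusted p of 0.05, ordered by log2 fold change, each with its own linear axis from 0. Crossbars and whiskers give the mean and SD, and in each panel every WDR11OE tumor lies on one side of all controls.

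Of the 13 cytosolic genes outside the complex, Vars fell (7.69%, against 15.8% of all genes tested) and Tars and Farsb rose (15.4%, against 18.1%), and the median log2 fold change was -0.0031. In the fit without the GC trend, edgeR called 0 lower and 0 higher, against 14.3% and 11.2% of all genes tested. At an unadjusted p under 0.05 there were 0 lower and 2 higher. Vars, the valyl enzyme (chr17:35137932-35153267, plus strand), was at 296, 287 and 355 CPM in the controls and at 234, 230.1, 241 and 185 CPM in WDR11OE. No tumors overlapped, and the fall was 1.41-fold (-0.49 ± 0.12, edgeR adjusted p = 0.0186). Its exons have the highest GC content of the family, 60.3%, and with the GC trend removed the log2 fold change was -0.15 with an adjusted p of 0.433. The exons of Vars share 304 bases with D17H6S56E-5 on the opposite strand, a gene with a log2 fold change of -0.02.

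Tars, the threonyl enzyme (chr15:11313418-11329413, minus strand), was at 82.3, 71.2 and 94.5 CPM in the controls and at 127, 134, 99.0 and 106 CPM in WDR11OE. WDR11OE replicate 3 stood only a little above control replicate 3, and the rise was 1.41-fold (0.49 ± 0.14, edgeR adjusted p = 0.0320). It was past the threshold in 9 of 18 alternatives, and the adjusted p was 0.0631 without the GC trend. Farsb, the beta subunit of the phenylalanyl enzyme, was at 82.8, 82.8 and 98.6 CPM in the controls and at 125, 127, 109 and 108 CPM in WDR11OE. Its groups were apart (0.42 ± 0.10, edgeR adjusted p = 0.0168), with an adjusted p of 0.125 without the GC trend.

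The other 10 of these genes were not past the threshold. Wars, the tryptophanyl enzyme, stood lowest of them at -0.37 ± 0.13 (edgeR adjusted p = 0.0567), with 45.2, 55.5 and 61.9 CPM in the controls and 43.9, 46.7, 38.9 and 37.9 CPM in WDR11OE. WDR11OE replicate 2 was above control replicate 1, so the groups overlapped. Cars, Yars and Aars, for cysteine, tyrosine and alanine, had log2 fold changes from -0.28 to -0.14, and Sars, Gars, Farsa, Tarsl2, Hars and Nars, for serine, glycine, phenylalanine, threonine, histidine and asparagine, from -0.03 to 0.20. All 9 overlapped across the groups.

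Of the 15 mitochondrial genes, 2 fell (Sars2 and Vars2) and 2 rose (Rars2 and Fars2), each 13.3%, against 15.8% and 18.1% of all genes tested, and the median log2 fold change was 0.09. Once the GC trend was removed, edgeR called 0 lower and the same 2 higher (13.3%), against 14.3% and 11.2% of all genes tested. At an unadjusted p under 0.05 there were 1 lower and 3 higher. Rars2 charges mitochondrial tRNA with arginine and lies at chr4:34562206-34607416 (plus strand). It was at 23.5, 27.0 and 23.5 CPM in the controls and at 37.9, 38.1, 35.2 and 35.04 CPM in WDR11OE. Spread within each group was small beside the 1.48-fold rise (0.57 ± 0.08, edgeR adjusted p = 0.00255), which was past the threshold in all 18 alternatives, including removal of the GC trend (0.33, edgeR adjusted p = 0.0434). The cytosolic and the mitochondrial arginyl enzymes thus both rose.

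Fars2, the mitochondrial phenylalanyl enzyme at chr13:36209280-36629461 (plus strand), was at 16.5, 16.95 and 18.5 CPM in the controls and at 24.5, 22.8, 22.8 and 21.5 CPM in WDR11OE. The groups did not overlap and the rise was 1.32-fold (0.40 ± 0.09, edgeR adjusted p = 0.0124). Fars2 was the sole riser with exons of high GC content, 56.7%, and removal of the GC trend raised its log2 fold change to 0.62 (edgeR adjusted p = 0.00445).

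Sars2, the mitochondrial seryl enzyme at chr7:29527010-29538871 (plus strand), was at 14.6, 13.3 and 18.2 CPM in the controls and at 11.2, 11.02, 10.7 and 9.84 CPM in WDR11OE. It fell 1.44-fold with no overlap (-0.53 ± 0.14, edgeR adjusted p = 0.0235). Vars2, the mitochondrial valyl enzyme at chr17:35792579-35804537 (minus strand), was at 40.0, 40.8 and 42.0 CPM in the controls and at 32.2, 35.1, 32.8 and 27.7 CPM in WDR11OE. It fell 1.28-fold, with the controls close together above every WDR11OE tumor (-0.36 ± 0.09, edgeR adjusted p = 0.0204). With the GC trend removed, neither was past the threshold (Sars2 -0.19, edgeR adjusted p = 0.401; Vars2 -0.07, edgeR adjusted p = 0.629).

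The 11 other mitochondrial genes had log2 fold changes from -0.22 to 0.28. Tars2, for threonine, was at 45.5, 53.7 and 52.2 CPM in the controls and at 44.5, 42.4, 42.6 and 43.8 CPM in WDR11OE (edgeR adjusted p = 0.0552). Its groups stood just apart, by 1 control that was close to the WDR11OE tumors. Pars2, for proline, had the highest value of these genes, 0.28 ± 0.14 (edgeR adjusted p = 0.161). Nars2, for asparagine, was higher without overlap at 0.24 (edgeR adjusted p = 0.0947). Iars2, the mitochondrial isoleucyl enzyme, was at 103, 77.3 and 102 CPM in the controls and at 103, 93.2, 94.6 and 95.9 CPM in WDR11OE (0.04, edgeR adjusted p = 0.836), and shares 2018 exon bases with Rab3gap2 on the opposite strand. Aars2, Yars2, Wars2, Mars2, Cars2, Hars2 and Ears2 lay between -0.11 and 0.19 and overlapped.

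By catalytic class, 3 of 17 class I genes fell (Iars, Vars and Vars2) and 3 rose, 17.6% each, and 1 of 18 class II genes fell (Sars2, 5.56%) and 4 rose (22.2%), leaving out Eprs, against 15.8% lower and 18.1% higher among all genes tested. Of 12 cytosolic genes listed as ATF4 targets, Iars fell (8.33%) and Eprs, Lars and Tars rose (25.0%), with a median log2 fold change of -0.02. Without the GC trend, Iars fell and 1 of the 12 rose, Mars (8.33% each, against 14.3% lower and 11.2% higher among all genes tested). Of the 9 other cytosolic genes, Vars fell (11.1%) and Rars, Dars and Farsb rose (33.3%), with a median of 0.12. In the fit without the GC trend, Rars was past the threshold (11.1%). Neither division separated the genes that fell from those that rose.

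Ratios that can be read within a tumor, free of the scaling between libraries, were formed for 12 pairs of a cytosolic gene and the mitochondrial gene for the same amino acid and for Farsb and Farsa, subunits of 1 enzyme, which gave 13 ratios. Eprs, which serves 2 amino acids, was not paired with Ears2 or Pars2, nor Farsa or Farsb with Fars2. These ratios were chosen after the data were seen. The log2 ratio of Iars to Iars2 was 0.88, 0.89 and 0.83 in the controls and -0.32, 0.17, 0.06 and 0.17 in WDR11OE. The controls were nearly the same and all WDR11OE tumors lay below them, by 0.84 on average (exact permutation p = 0.0286, the smallest that 35 arrangements of the tumors allow; adjusted over 13 ratios 0.0929).

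The ratio of Tars to Tars2 was 0.85, 0.41 and 0.86 in the controls and 1.51, 1.66, 1.22 and 1.27 in WDR11OE. It was higher in all 4 WDR11OE tumors, by 0.71 (exact permutation p = 0.0286, adjusted 0.0929). The ratio of Sars to Sars2 was higher by 0.49 and that of Farsb to Farsa by 0.37, both without overlap and with the same exact permutation p of 0.0286 (adjusted 0.0929). With the GC trend removed, the differences between the log2 fold changes of these pairs were -0.73 for Iars and Iars2, 0.66 for Tars and Tars2, 0.25 for Sars and Sars2 and 0.20 for Farsb and Farsa. Wars to Wars2 was lower by 0.44 without overlap (exact permutation p = 0.0571, adjusted 0.149), and the other 8 ratios overlapped. Adjusted over 13 ratios, the smallest p passes 0.05 only where at least 8 ratios reach it.

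**Figure D3:**
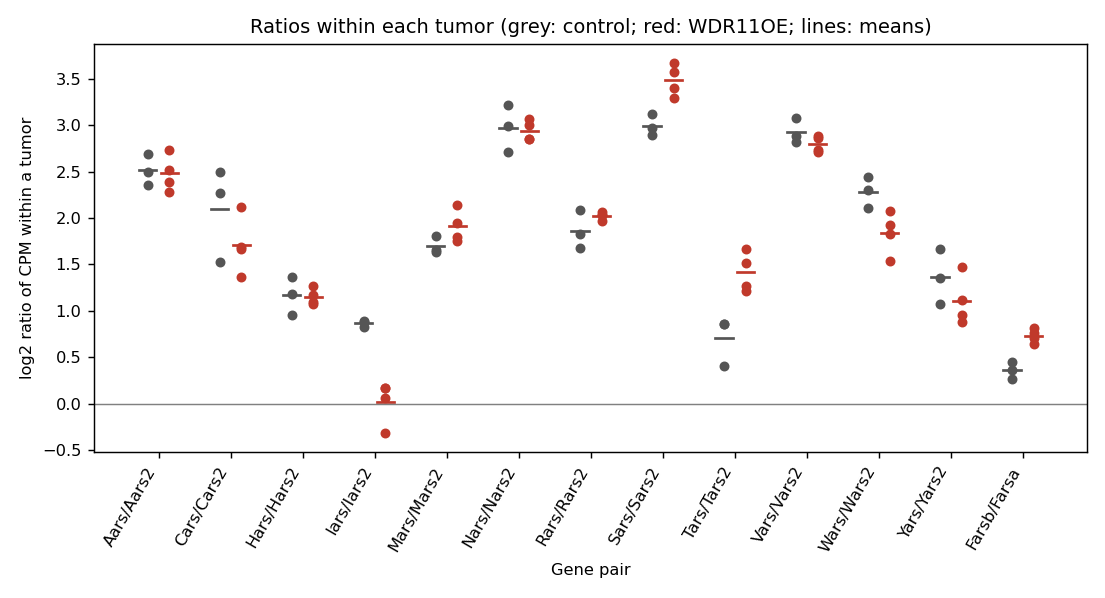
Log2 ratio of the CPM of paired synthetase genes within each tumor (grey: 3 controls; red: 4 WDR11OE; lines: means), for 12 cytosolic and mitochondrial pairs and the Farsb and Farsa subunits. Iars/Iars2 falls from near 0.86 to near 0.02, Tars/Tars2, Sars/Sars2 and Farsb/Farsa shift up without overlap, Wars/Wars2 shifts down, and the rest overlap.

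Levels between genes were compared as CPM per kilobase of exon, averaged over the 7 tumors. The cytosolic genes, with Gars and Kars among them, had a median of 38.4 and the mitochondrial genes one of 7.10, against 4.61 over the genes tested. Kars was highest, from 82.2 to 108 in the controls and from 80.7 to 107 in WDR11OE, followed by Eprs (56.2 to 69.7 and 76.4 to 87.7) and Gars (59.2 to 82.9 and 69.7 to 77.6). The ranges of these 3 genes over the tumors overlapped. Within each of the 7 tumors Kars was above both others. Gars was above Eprs in every control and below it in every WDR11OE tumor, so the order of Eprs and Gars differed by condition. Lowest were Wars2 (1.76 to 1.92 in the controls and 1.73 to 2.20 in WDR11OE), Pars2 (2.68 to 3.25 and 3.20 to 3.87) and Tarsl2, a second cytosolic threonyl enzyme (3.08 to 4.07 and 3.60 to 4.25). The ranges of Pars2 and Tarsl2 overlapped, but within each tumor Tarsl2 was above Pars2, and Wars2 was below both. Of the cytosolic genes, Yars, Cars and Tarsl2 lay under the highest mitochondrial gene, Rars2, at 11.4 in the average over the 7 tumors. For Yars and Cars this order differed by condition. In the control means, Yars (12.2) and Cars (11.8) lay above Rars2 (8.91) and above Tars2 (11.4), the highest mitochondrial gene there. In the WDR11OE means, Yars (10.6) and Cars (9.69) lay below Rars2 (13.2).

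Summed over all 36 genes, the synthetases took 3264 ± 349 CPM (SD, n = 3) in the controls and 3485 ± 209 CPM (n = 4) in WDR11OE, and the tumors overlapped. The 21 cytosolic genes took 2834 ± 335 and 3040.5 ± 190.1 CPM and the 15 mitochondrial genes 430.1 ± 15.2 and 445 ± 24.4 CPM, likewise with overlap. Within WDR11OE, replicates 1 and 2, which share a title number, were both above replicates 3 and 4 for 20 of the 36 genes (55.6%) and both below for 0, against 29.9% and 32.6% of all genes tested. Summed neuron markers ran the other way, at 13.3 and 30.3 CPM in replicates 1 and 2 and 225 and 733 CPM in replicates 3 and 4. So did the sums of astrocyte markers (259 and 277 against 516 and 892 CPM), microglia markers (117 and 127 against 173 and 232 CPM) and granule lineage markers (26.0 and 24.2 against 32.2 and 57.8 CPM). Endothelial markers were higher in replicates 1 and 2, and oligodendrocyte and muscle markers did not separate the replicates in this way. With the neuron markers as a covariate, chosen after the data were seen, 6 synthetase genes fell and 8 rose. The share of all genes tested that moved in that fit is not given here, so these counts cannot be set against it.

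Across the 36 genes, the log2 fold change declined with the GC content of the exons (Spearman's rho = -0.60, Pearson's r = -0.60, a description over genes that share the same 7 libraries), as it did over the 17125 tested genes with an annotation (rho = -0.34). The 4 genes that fell had a median GC content of 59.2% and the 8 that rose one of 45.5%, with Iars, at 48.6%, and Fars2, at 56.7%, away from the others of their direction. After removal of the trend from each tumor, rho was -0.20 over the 36 genes. Of the 12 genes past the threshold, 1 that fell (Iars) and 3 that rose (Rars, Rars2 and Fars2) stayed past it, and all 12 kept their sign. With a trend in exon length removed instead, 2 fell and 5 rose, and the share of all genes tested in that fit is not given here.

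**Figure D4:**
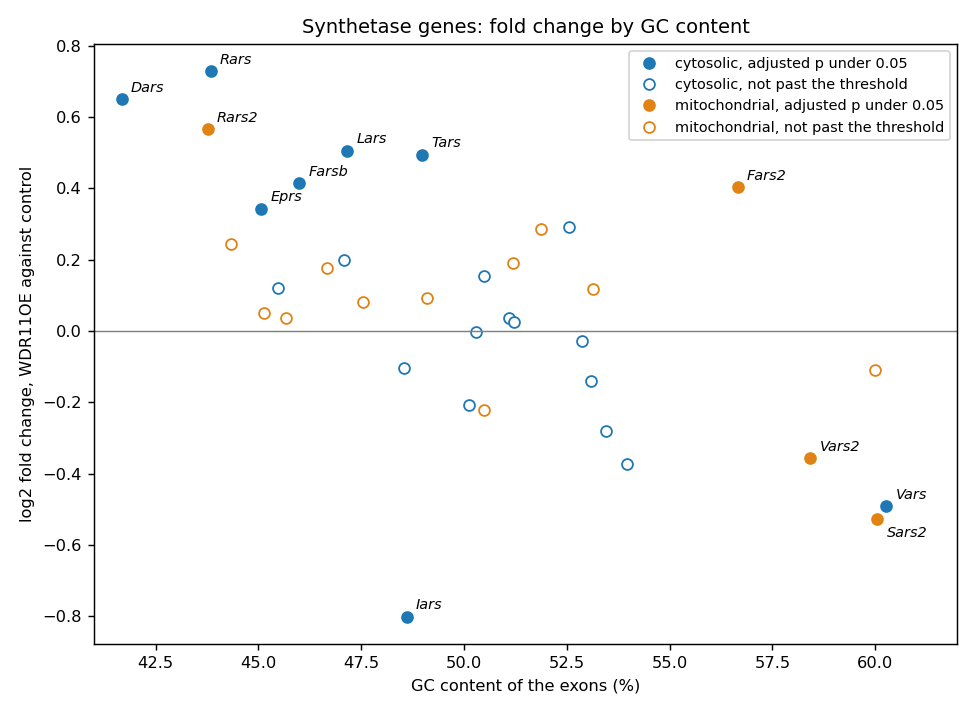
Log2 fold change of WDR11OE against control plotted against the GC content of the exons for the 36 synthetase genes, with the 12 past an adjusted p of 0.05 filled and named. Risers cluster near 45% and fallers near 60%, and Iars and Fars2 lie apart from that trend.

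Other genes of tRNA charging were taken from a list of 19 partners, of which 18 were in the table, and 6 of these rose (33.3%, against 18.1% of all genes tested) while Gatc fell (5.56%, against 15.8%). Trnt1, which adds the CCA end that every tRNA needs to be charged, was at 55.1, 50.5 and 61.7 CPM in the controls and at 122, 126, 121 and 124 CPM in WDR11OE. It rose 2.21-fold with a wide gap between the groups (1.14 ± 0.08, edgeR adjusted p = 0.000858), and by 0.74 on the log2 scale without the GC trend (edgeR adjusted p = 0.00318). Its exons have a GC content of 40.0%. Pstk and Sepsecs, which turn serine on its tRNA into selenocysteine, rose by 0.62 (edgeR adjusted p = 0.00342) and 0.34 (edgeR adjusted p = 0.0291). Ptrh2, a peptidyl-tRNA hydrolase, rose by 0.50 (edgeR adjusted p = 0.00293). After removal of the GC trend, Pstk stayed past the threshold at 0.45 (edgeR adjusted p = 0.0181), whereas Sepsecs was at 0.10 (edgeR adjusted p = 0.437) and Ptrh2 at 0.22 (edgeR adjusted p = 0.100).

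Mitochondria make glutaminyl-tRNA by amidating a mischarged tRNA, with a 3-subunit enzyme encoded by Qrsl1, Gatc and Pet112l. Qrsl1 was at 13.3, 11.9 and 11.9 CPM in the controls and at 17.5, 16.5, 16.9 and 18.4 CPM in WDR11OE and rose by 0.49 (edgeR adjusted p = 0.00955). Gatc was at 24.0, 21.5 and 23.5 CPM in the controls and at 17.1, 17.9, 16.8 and 16.3 CPM in WDR11OE and fell by 0.44 (edgeR adjusted p = 0.00803). These subunits of 1 enzyme moved in opposite directions, both without overlap and both past the threshold without the GC trend. Pet112l had a log2 fold change of 0.41 (edgeR adjusted p = 0.0595). With the GC trend removed, 4 partners rose (22.2%, against 11.2% of all genes tested) and 1 fell (5.56%, against 14.3%).

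Of 22 genes of the amino acid response, 7 fell (31.8%, against 15.8% of all genes tested). The count that rose was 0 by edgeR's quasi-likelihood test and by limma-voom and 1 by DESeq2, and at an unadjusted p under 0.05 it was 2, 1 and 2. Slc7a1, a transporter of arginine and lysine, was at 166, 136 and 170.2 CPM in the controls and at 71.1, 87.4, 93.5 and 86.0 CPM in WDR11OE. It fell 1.87-fold without overlap (-0.90 ± 0.12, edgeR adjusted p = 0.00176). Slc7a5 and Slc3a2, the light and heavy chains of a transporter of large neutral amino acids such as leucine and isoleucine, fell by 0.76 (edgeR adjusted p = 0.0117) and 0.47 (edgeR adjusted p = 0.0183). Without the GC trend, Slc7a5 was at -0.56 (edgeR adjusted p = 0.0493) and Slc3a2 at -0.35 (edgeR adjusted p = 0.0678).

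Sesn2, a leucine-binding inhibitor of mTOR signalling, fell by 0.83 (edgeR adjusted p = 0.00250), and Chac1, which degrades glutathione, by 1.47 from 6.38 ± 1.81 to 2.29 ± 1.41 CPM (edgeR adjusted p = 0.0487, or 0.102 without the GC trend). Eif2ak4, the kinase GCN2 that binds uncharged tRNA, and its partner Gcn1l1 fell by 0.25 (edgeR adjusted p = 0.0346) and 0.55 (edgeR adjusted p = 0.00328). Eif2ak4 was past the threshold in 8 of 18 alternatives and Gcn1l1 in 17. Neither was past it with the length trend removed (edgeR adjusted p = 0.157 and 0.203). Atf4 itself overlapped, at 129 ± 22.1 CPM in the controls and 118 ± 8.79 CPM in WDR11OE (edgeR adjusted p = 0.473). Asns, asparagine synthetase, had a log2 fold change of 0.45 (edgeR adjusted p = 0.111) and Psph, of serine synthesis, 0.45 (edgeR adjusted p = 0.0629), so members of the list lay on both sides of 0. With the GC trend removed, 5 of the 22 genes fell (22.7%, against 14.3% of all genes tested).

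**Figure D5:**
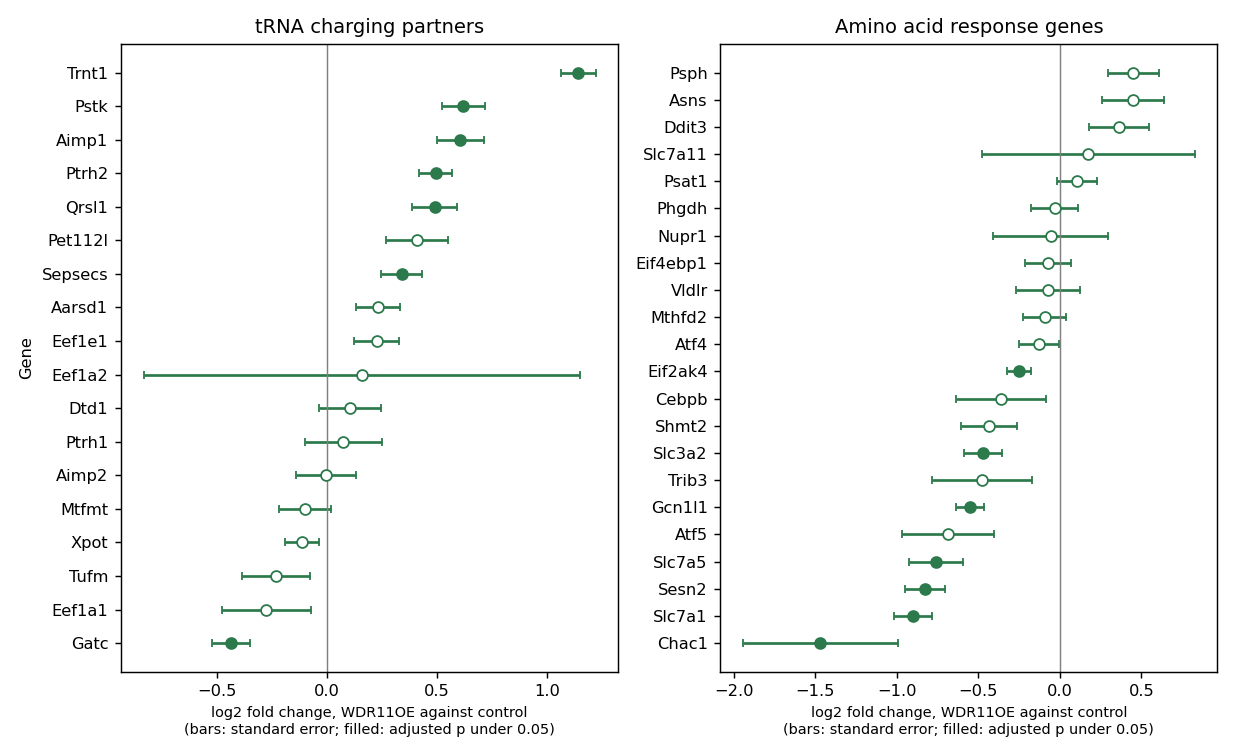
Log2 fold change of WDR11OE against control, with bars of 1 standard error, for 18 partners in tRNA charging (left) and 22 genes of the amino acid response (right); filled circles mark an adjusted p under 0.05. Trnt1 is highest on the left at 1.14 with Gatc lowest, and on the right the 7 filled circles all lie below 0.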

How the data were processed

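RNA from 7 mouse G3 MBs was measured, 4 WDR11OE and 3 controls. The deposited values are raw counts per gene, which the authors obtained from HT-seq on a GENCODE annotation after mapping by StrongArm to NCBIM37.67; the submitters' processing notes list CASAVA 1.7, STAR, BWA and HTSeq. The strand setting of the counting is not given in the sources used here, and the labels name a TruSeq RNA kit where the paper describes stranded libraries, so reads of genes that overlap on opposite strands may not be separated. Total counts of 32116095 to 87141305 per tumor set the counting error, which covers sampling only, since reads carry no molecular identifiers.

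Genes were filtered with filterByExpr of edgeR 4.0.16 in R 4.3.3, scaled by TMM and tested by the quasi-likelihood test (two-sided), with p adjusted by Benjamini-Hochberg over all 17389 genes. The standard error was derived from the log2 fold change and F. The members and lists were chosen with earlier results of these data known, and 1 gene of the partner list is not reported here. Named in full are members past an adjusted p of 0.05, the ends of the cytosolic and mitochondrial lists and of the levels per length, and up to 4 genes at each end of a pathway list; others, such as Mars, Iars2, Qrsl1, Eif2ak4, Gcn1l1, Slc3a2, Atf4, Asns and Psph, were named after their values were seen. Exon length, GC content and coordinates came from GENCODE vM1 on NCBIM37, matched for 98.5% of the genes tested, and the GC and length trends were loess curves (span 0.3) per tumor in the offset. Log2 CPM used a prior count of 2. Ratios were compared by exact permutation, two-sided. The fit was tested on simulated data. Alternatives were limma 3.58.1 (voom, the study's method), DESeq2 1.42.0, other scalings and filters, an adjusted p under 0.01, the 2 trends and each tumor left out, and, chosen after seeing the data, the 5 smallest libraries and a neuron marker covariate. No statement in the labels says that tumors were independent cultures, so p-values measure the spread between these tumors.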

Additional observations from a re-analysis of the deposited data

Results flagged for a closer look

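Of 76 genes examined (the 36 synthetases and the tested genes of the pathway lists), 2 had 1 WDR11OE tumor set apart from the other 3. The rule was a gap that was large beside the range of all 4, and chance alone flags about 1 in 20 groups of 4. Pstk, the kinase that acts on seryl-tRNA for selenocysteine, was at 17.5 CPM in WDR11OE replicate 2 and between 17.07 and 17.12 CPM in the others. Its gap was small in CPM and was flagged because the others were close together. Ddit3, a gene of the stress response whose exons share 68 bases with Mars on the opposite strand, was at 7.15 CPM in WDR11OE replicate 3 and between 9.59 and 10.1 CPM in the others. None of the 36 synthetase genes was singled out in this way.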

How the results depend on the processing

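Of 648 recomputed values for the 36 genes over 18 alternatives, 533 kept their direction and their side of the threshold, 58 lost the threshold, 13 gained it, 44 genes' values that were not past it changed sign, and 0 reversed. Iars, Rars and Rars2 were past the threshold in all 18. The 4 lower and 8 higher synthetase genes became 1 and 4 with the GC trend removed, 2 and 5 with the length trend removed, 1 and 3 at an adjusted p under 0.01, and 1 and 3 on the 5 smallest libraries; without the filter 4 rose. Leaving out 1 tumor gave 1 to 6 lower and 3 to 8 higher genes, with 1 lower without control replicate 3 or WDR11OE replicate 1, 2 lower without WDR11OE replicate 2, 3 higher without WDR11OE replicate 1 or 2, and 5 higher without control replicate 2. The 6 higher partners became 4 with the GC trend removed; the 1 lower partner became 0 on the 5 smallest libraries and 2 with the neuron covariate. The 7 amino acid response genes that fell ranged from 4 to 7 with 1 tumor left out (4 without control replicate 1 or 3 or WDR11OE replicate 1), and the 0 that rose became 1 by DESeq2, upper-quartile scaling or the neuron covariate. The median log2 fold change of the cytosolic genes ranged from -0.033 to 0.18 and that of the mitochondrial genes from 0.011 to 0.16 with 1 tumor left out, and the latter was 0.17 with the length trend removed. The median over all genes was 0.08 and lay between -0.01 and 0.14 over the alternatives. Apart from the GC trend, the share of all genes tested that moved in each alternative is not given here, so the counts cannot be set against it. The cause of these differences was not tested beyond the alternatives' own construction. No paired analysis was possible because the labels give no replicate numbers that join controls to WDR11OE tumors.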
